A study of Mus musculus with 32 samples.

Results

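Tex19.2, Greb1, Slc9a2, Map2k6, Chn1, Rnf165, Hectd2 and Acpp are 8 genes with a large difference between Ddr1-knockout and wild-type E0771 tumours grown in Rag1-/- mice, with the knockout tumours higher. They were taken by symbol from the first column of 4 deposited tables, 8 of the 20109 symbols that stood in every table, and all 8 were found in each. They were chosen by their log2 difference between KO and WT tumours of Rag1-/- hosts, so their values in those tumours are given as a description with no test, and tests are given for cultured cells and for tumours in C57BL/6 mice. All 8 passed the filter on low values, a mean of 10 normalized counts, in all 4 tables.

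E0771 is a mouse mammary carcinoma line, and the product of Ddr1, discoidin domain receptor 1, is a tyrosine kinase of the cell surface that is switched on by collagen. Poly(A) RNA was sequenced in 32 libraries that fall into 8 groups. In culture there were 2 DDR1 KO libraries (titled 3-6 and 3-7) and 3 DDR1 WT libraries (titled E0771-P, EV and Ctrl). Rag1-/- mice, which lack mature T and B cells, carried 5 DDR1 KO and 5 DDR1 WT tumours. C57BL/6 mice that received tumours passed on from Rag1-/- mice gave 5 DDR1 KO and 4 DDR1 WT tumours titled day 4. At day 6, C57BL/6 mice carried 4 tumours given an hDDR1 ECD antibody and 4 given IgG, with no Ddr1 genotype in the labels. Sex, age, how the knockout was made and how many clones the KO tumours came from are not in the labels. The labels do not say that tumours or cultures of a group were independent, so p-values measure the spread between libraries. A tumour library mixes carcinoma and host cells, and fewer cells of a type cannot be told apart from less RNA per cell.

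The 8 genes belong to different pathways. Map2k6 encodes MKK6, a kinase that phosphorylates and activates p38 kinases in stress signalling. Chn1 encodes alpha-chimaerin, which switches off the GTPase Rac downstream of Eph receptors in axon guidance. Greb1 encodes a cofactor of oestrogen receptor and is a well-known oestrogen target in human breast cancer cells. Tex19.2 is a germ cell gene whose close relative Tex19.1 restrains retrotransposons in the mouse germ line. Slc9a2 encodes NHE2, a sodium-proton exchanger of epithelial membranes. Rnf165 and Hectd2 encode ubiquitin ligases of the RING and HECT kinds, and Rnf165 is known in mice for enhancing BMP signalling in motor neurons. Acpp encodes prostatic acid phosphatase, which also turns AMP into adenosine in pain-sensing neurons of mice.

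Promoters were read from RefSeq (GRCm38.p6), as 250 bases before to 50 bases after a start, and 5 of the 8 genes were in that table. Shown are Tex19.2 and Chn1, whose levels were the most alike of any pair among those 5, and Greb1, the oestrogen target. For Chn1 and Greb1 the table holds 2 starts each, and the one farther upstream is shown. CG dinucleotides are in capitals.
Tex19.2, chr11:121118628-121118927, minus strand: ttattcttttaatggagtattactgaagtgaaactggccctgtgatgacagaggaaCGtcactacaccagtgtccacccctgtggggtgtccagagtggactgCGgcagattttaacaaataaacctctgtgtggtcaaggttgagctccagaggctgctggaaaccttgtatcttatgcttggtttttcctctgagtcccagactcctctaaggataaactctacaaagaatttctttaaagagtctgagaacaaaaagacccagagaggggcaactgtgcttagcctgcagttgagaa
Chn1, chr2:73775297-73775596, minus strand: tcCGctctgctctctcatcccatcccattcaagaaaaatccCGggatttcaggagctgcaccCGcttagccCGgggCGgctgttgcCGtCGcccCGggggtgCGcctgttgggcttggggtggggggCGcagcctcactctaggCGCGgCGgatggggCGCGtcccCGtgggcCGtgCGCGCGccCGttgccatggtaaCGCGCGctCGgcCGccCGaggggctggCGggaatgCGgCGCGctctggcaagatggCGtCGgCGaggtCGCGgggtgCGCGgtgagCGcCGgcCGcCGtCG
Greb1, chr12:16800837-16801136, minus strand: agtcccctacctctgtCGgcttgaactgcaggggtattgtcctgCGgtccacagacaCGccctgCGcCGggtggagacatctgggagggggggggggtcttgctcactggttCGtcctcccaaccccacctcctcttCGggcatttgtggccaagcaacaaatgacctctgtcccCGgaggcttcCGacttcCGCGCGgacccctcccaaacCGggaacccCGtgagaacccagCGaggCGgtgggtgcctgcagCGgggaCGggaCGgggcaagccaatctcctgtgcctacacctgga
The 3 windows differ widely in CG content. Tex19.2 had 2 CG dinucleotides, Chn1 43 and Greb1 19, against a median of 7 over 32851 promoters. The starts not shown had 5 CG dinucleotides for Chn1 and 3 for Greb1, so the contrast holds for the windows shown. The second Chn1 window held no GC box core, 1 E-box and 1 CCAAT box. Motifs were searched on both strands and could overlap each other. The Chn1 window held 2 copies of the GC box core GGGCGG, which 35.7% of promoters hold, and the other windows shown held none. The E-box CANNTG, held by 72.3% of promoters, occurred 2 times in Tex19.2 and 4 times in Greb1. The CCAAT box, in 37.4% of promoters, occurred once in Greb1. The TATA box TATAAA (13.6% of promoters) and the AP-1 motif TGANTCA (7.81%) were in none of the windows shown. The oestrogen response element palindrome (GGTCA and TGACC with 3 bases between them), in 0.0700% of promoters, was in no window of the 5 genes, starts not shown included.

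The genes lie on 7 chromosomes (GENCODE positions, GRCm38). Tex19.2 spans chr11:121116215-121118677 on the minus strand and Map2k6 spans chr11:110399122-110525522 on the plus strand, 10590692 bases apart. Greb1 spans chr12:16670615-16800886 (minus), Slc9a2 chr1:40680574-40769273 (plus) and Chn1 chr2:73610660-73775346 (minus). Rnf165 spans chr18:77456110-77565161 (minus), Hectd2 chr19:36554639-36621135 (plus) and Acpp chr9:104288251-104337748 (minus). No member overlaps a protein-coding gene. Of other genes, Greb1 overlaps Gm48140 and Gm44305, Slc9a2 overlaps Gm37623 and Rnf165 overlaps AC102135.1. Chn1 overlaps Chn1os1 and Chn1os3, and Hectd2 overlaps Hectd2os. Of all 50-base windows of a member's transcripts, 18.6% for Hectd2 and 9.24% for Chn1 also occurred, on either strand, in a transcript of another gene, mainly these partners. The strand setting of the counting is not known, so reads of all these overlapping genes are uncertain. The share was 5.73% for Greb1, mainly with Gm48140, and 2.50% for Tex19.2, which shared windows with Tex19.1, 27465 bases away. It was 0.887% for Acpp, 0.118% for Rnf165 and 0 for Slc9a2 and Map2k6.

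Depth was 18967300 to 39732635 reads per library. Ddr1 itself followed the labels, with 19.0 to 49.7 RPM (reads scaled to equal library depth) across KO libraries, against 132 to 213 RPM across WT libraries. At day 6 it stood at 18.5 to 28.5 RPM with antibody and 15.9 to 22.1 RPM with IgG, under every WT library in both groups. Summed levels of 8 marker lists (carcinoma epithelium, fibroblast, endothelium, macrophage, T and B cell, adipocyte, skeletal muscle, Schwann cell) overlapped between the groups compared in Rag1-/-, day 4 and day 6 tumours. Medians could still lie far apart, in both directions. At day 4, fibroblast markers had 12557 RPM in KO against 4744 RPM in WT tumours, and skeletal muscle markers 14.3 against 113 RPM. At day 6, adipocyte markers had 234 RPM with antibody against 42.8 RPM with IgG, and skeletal muscle markers 39.9 against 858 RPM. In culture 3 of the 8 lists did not overlap. Fibroblast markers summed to 443 and 919 RPM in KO cells against 176 to 238 RPM in WT cells, with Lum and Thy1 at 0 in both. Col1a2, of the same list, went the other way, at 0 in both KO libraries but not in all WT libraries. Epithelial markers summed to 179 and 214 RPM in KO cells against 235 to 267 RPM in WT cells. Skeletal muscle markers summed to 4.19 and 4.19 RPM in KO cells against 5.35 to 20.8 RPM in WT cells. The part of these marker differences in the results for culture or tumours was not tested.

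In the other 3 comparisons limma and edgeR called none of the 8 genes, while DESeq2 and the authors' deposited table called some of them in culture and at day 4. Of these comparisons, day 6 set antibody against IgG and not KO against WT, so it does not show whether a knockout difference is present. In culture every gene had a higher mean log2 level in KO than in WT cells, by 0.49 to 2.29, but 0 of 8 passed an adjusted p of 0.05 in limma, where 0.327% of all 11911 genes did. In C57BL/6 day 4 tumours the differences ran between -0.91 and 0.89 and 0 of 8 passed (0.0354% of all genes). In day 6 tumours they ran between -0.77 and 0.22 and 0 of 8 passed (0.00% of all genes). At an unadjusted p under 0.05, limma had 3 of 8 in culture, 2 of 8 at day 4 and 2 of 8 at day 6, against 18.8%, 15.0% and 8.60% of all genes. edgeR's quasi-likelihood test on the recovered reads called 0 of 8 in each, where it called 0.210%, 0.0284% and 0.00% of all genes. DESeq2 called Tex19.2 higher in culture (8.36% of all genes called), Tex19.2 higher and Map2k6 lower at day 4 (4.73%) and 0 of 8 at day 6 (0.999%). The authors' deposited table called Tex19.2, Slc9a2 and Chn1 higher in culture, where 1.65% of all genes were called higher. At day 4 it called Tex19.2 higher (2.50% of all genes) and Map2k6 lower (2.22%). Whether the knockout difference itself differed between hosts was not tested, because the Rag1-/- comparison chose the genes.

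**Figure D1:**
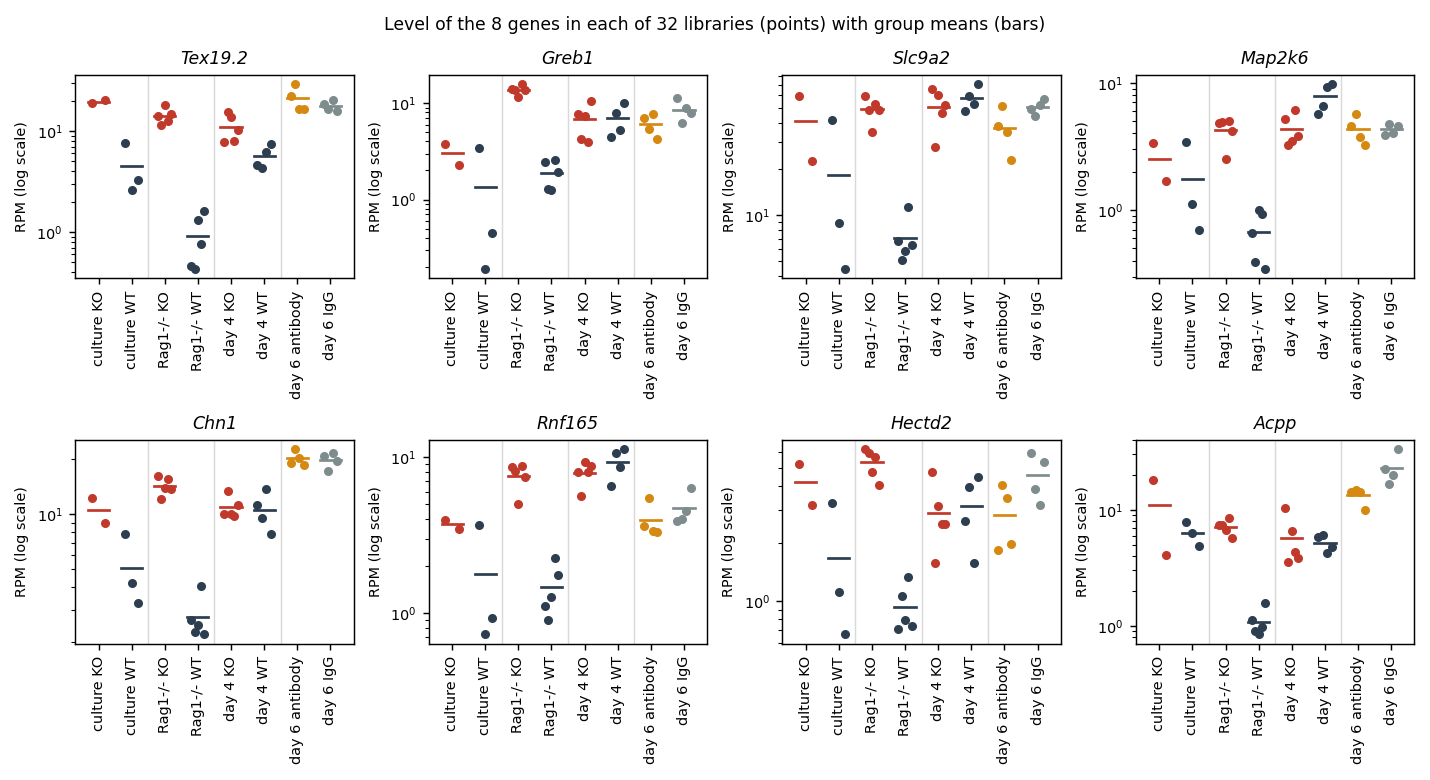
RPM (log scale) of each gene in all 32 libraries; each point is a library and each bar a group mean, with KO or antibody left of WT or IgG. The 5 wild-type tumours of Rag1-/- hosts lie below all other tumours for all 8 genes, while the day 4 KO and WT points overlap except, narrowly, for Tex19.2.

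**Figure D2:**
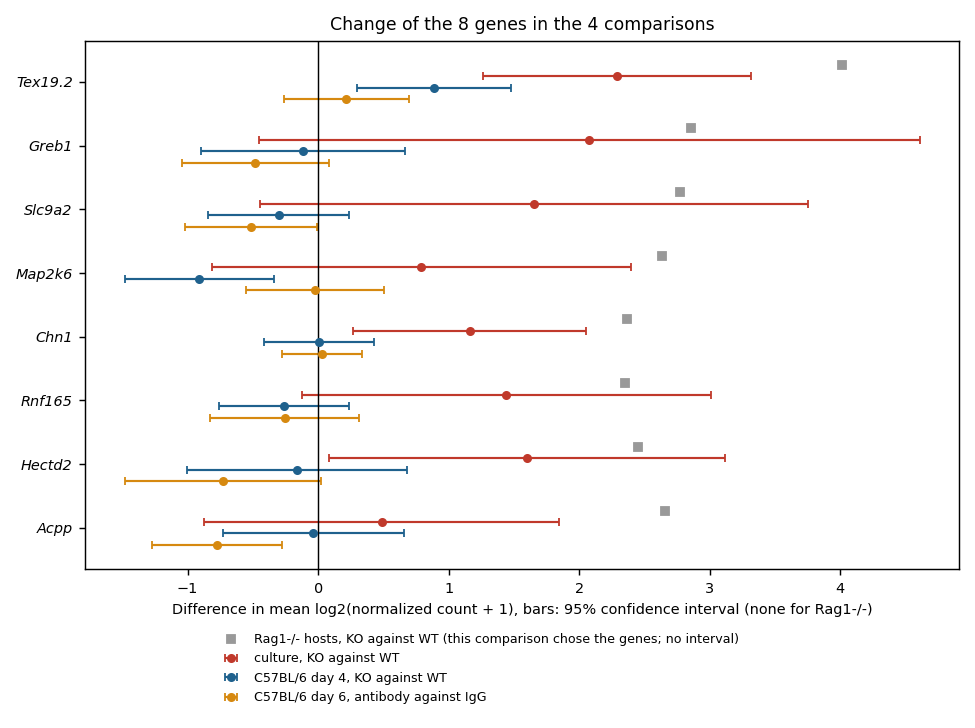
Difference in mean log2(normalized count + 1) for each gene, KO minus WT or antibody minus IgG, with 95% confidence intervals from limma for the 3 comparisons that did not choose the genes. The grey squares (Rag1-/- hosts) lie between 2.35 and 4.01; the day 4 and day 6 values lie between -0.91 and 0.89.

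Map2k6, the p38-activating kinase, was higher in KO than in WT tumours of Rag1-/- hosts and lower in KO than in WT tumours at day 4. Tumours of Rag1-/- hosts had 4.82, 4.88, 2.50, 5.03 and 4.17 RPM where Ddr1 was knocked out, against 0.661, 0.392, 1.00, 0.932 and 0.344 RPM in WT tumours. The lowest KO tumour stood above the highest WT tumour, and the log2 difference was 2.64. All 8 genes were separated in this way, as were 7.85% of all 12795 genes in this direction, and nothing is read from this because the same comparison chose the genes. At day 4 it had 5.15, 3.25, 3.47, 6.12 and 3.78 RPM in KO tumours, against 5.72, 6.63, 9.23 and 9.82 RPM in WT tumours. One KO tumour lay above the lowest WT tumour, so the groups overlapped. By the authors' normalized counts the day 4 groups overlapped for all 8 genes, where 5.76% of all genes had separate groups. The log2 difference was -0.91 (95% interval -1.48 to -0.34, limma adjusted p = 0.181), and DESeq2 put the adjusted p at 0.0287. In the authors' deposited table Map2k6 was lower in KO at day 4 with an adjusted p of 0.0287, where 2.22% of genes were called lower. Cultured KO cells had 3.36 and 1.68 RPM, against 3.42, 1.11 and 0.695 RPM in WT cells, with one WT library above both KO libraries. At day 6 the mean was 4.32 ± 1.08 RPM with antibody and 4.31 ± 0.409 RPM with IgG (SD, n = 4 each), a log2 difference of -0.03 (interval -0.55 to 0.50).

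Chn1, the Rac-inactivating chimaerin, separated KO from WT tumours in Rag1-/- hosts and had overlapping groups in both sets of C57BL/6 tumours. KO tumours of Rag1-/- hosts had 16.1, 12.1, 14.0, 15.6 and 13.8 RPM, against 2.64, 2.27, 2.48, 4.08 and 2.21 RPM in WT tumours, a log2 difference of 2.36. The WT values lay close together except for tumour 4, which was still under every KO tumour. In culture KO cells had 12.3 and 9.01 RPM, against 7.86, 4.24 and 3.26 RPM in WT cells. Both KO libraries were above all 3 WT libraries, but the log2 difference of 1.16 (interval 0.27 to 2.05) had a limma adjusted p of 0.171. The authors' deposited table called Chn1 higher in KO cells (adjusted p = 0.0368), where 1.65% of genes were called higher. By normalized counts, groups were separated in this direction for 18.5% of all genes in culture, and for 3 of the 8 genes here. At day 4 the mean was 10.9 ± 1.49 RPM in KO tumours (n = 5) and 10.6 ± 2.50 RPM in WT tumours (n = 4), a log2 difference of 0.01 (interval -0.42 to 0.43). With antibody at day 6 it was 20.2 ± 1.86 RPM, and with IgG it was 19.8 ± 1.93 RPM (SD, n = 4 each), a log2 difference of 0.03 (interval -0.28 to 0.33). These are the narrowest intervals of the 8 genes in both C57BL/6 comparisons.

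Tex19.2 was the member with the largest difference in Rag1-/- hosts and in culture, and its mean was also higher in KO than in WT tumours at day 4. KO tumours of Rag1-/- hosts had 14.0, 11.4, 18.0, 12.7 and 14.6 RPM, against 0.458, 0.431, 1.32, 0.755 and 1.62 RPM in WT tumours, a log2 difference of 4.01. The summed reads were 1508 over the KO tumours and 95 over the WT tumours, so the WT level rests on few reads. Among cultured cells, KO libraries had 18.8 and 20.2 RPM, against 7.69, 2.63 and 3.26 RPM in WT cells. The groups were well apart, with a log2 difference of 2.29 (interval 1.26 to 3.31, limma adjusted p = 0.0686), while DESeq2 gave an adjusted p of 0.000109. At day 4 it had 7.83, 15.3, 13.7, 7.99 and 10.3 RPM in KO tumours, against 4.63, 4.26, 6.204 and 7.43 RPM in WT tumours. The lowest KO tumour was just above the highest WT tumour in RPM, while in the authors' normalized counts the groups overlapped. The log2 difference of 0.89 (interval 0.30 to 1.48) had a limma adjusted p of 0.197 and a DESeq2 adjusted p of 0.0350. The authors' deposited table gave an adjusted p of 1.34e-10 in culture and 0.0351 at day 4, both with KO higher, where 1.65% and 2.50% of genes were called higher. Day 6 tumours had 22.2, 29.4, 16.7 and 16.7 RPM with antibody and 18.4, 16.6, 20.3 and 15.9 RPM with IgG, and the groups overlapped (log2 difference 0.22, interval -0.26 to 0.70).

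Greb1, the oestrogen receptor cofactor, reached its highest group mean in KO tumours of Rag1-/- hosts. These had 14.1, 13.8, 11.5, 15.9 and 13.8 RPM, against 2.44, 1.29, 1.27, 2.57 and 1.92 RPM in WT tumours, a log2 difference of 2.85. Every other library of the series was below the lowest of these KO tumours. At day 4 the values were 7.79, 4.27, 7.32, 3.97 and 10.6 RPM in KO tumours, against 4.50, 7.92, 5.31 and 10.03 RPM in WT tumours. The groups overlapped over nearly their whole range (log2 difference -0.12, interval -0.90 to 0.67, limma adjusted p = 0.902). Day 6 tumours had 7.07, 5.44, 7.80 and 4.26 RPM with antibody and 11.2, 6.18, 8.80 and 7.97 RPM with IgG, a log2 difference of -0.48 (interval -1.05 to 0.08). In culture KO cells had 3.76 and 2.29 RPM, against 3.42, 0.190 and 0.454 RPM in WT cells. The WT cells ranged more widely than any difference between groups, and the interval of the log2 difference ran between -0.46 and 4.61.

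Slc9a2, the sodium-proton exchanger, had its highest group mean in WT tumours at day 4, as did Map2k6 and Rnf165. KO tumours of Rag1-/- hosts had 59.9, 48.2, 34.8, 52.7 and 48.3 RPM, against 6.82, 5.13, 5.85, 11.3 and 6.39 RPM in WT tumours, a log2 difference of 2.77. At day 4 KO tumours had 66.3, 27.7, 60.03, 46.4 and 51.7 RPM, against 47.7, 59.4, 53.0 and 71.5 RPM in WT tumours. The day 4 groups overlapped and the WT mean was the higher (log2 difference -0.30, interval -0.84 to 0.24, limma adjusted p = 0.594). At day 6 it had 37.8, 51.4, 34.8 and 22.7 RPM with antibody and 48.7, 44.4, 51.8 and 57.2 RPM with IgG. Here 3 of 4 antibody tumours were below every IgG tumour, and the log2 difference of -0.52 (interval -1.02 to -0.01) had an unadjusted p of 0.0459 and a limma adjusted p of 0.517. In culture KO cells had 59.1 and 22.6 RPM, against 41.5, 8.88 and 4.46 RPM in WT cells, with one WT library between the KO libraries. The authors' deposited table called Slc9a2 higher in KO cells in culture (adjusted p = 8.1e-08), where 1.65% of genes were called higher. By contrast, limma gave an adjusted p of 0.367 for the log2 difference of 1.65.

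Of the ubiquitin ligase genes, Rnf165 and Hectd2 both separated KO from WT tumours in Rag1-/- hosts and overlapped in C57BL/6 hosts. Rnf165 had 8.67, 8.08, 5.00, 8.71 and 7.48 RPM in KO tumours of Rag1-/- hosts, against 1.12, 0.901, 1.27, 2.26 and 1.77 RPM in WT tumours, a log2 difference of 2.35. At day 4 it averaged 7.95 ± 1.40 RPM in KO tumours (n = 5) and 9.22 ± 2.12 RPM in WT tumours (n = 4), a log2 difference of -0.26 (interval -0.76 to 0.24). At day 6 it averaged 3.94 ± 1.01 RPM with antibody and 4.70 ± 1.14 RPM with IgG (SD, n = 4 each), a log2 difference of -0.26 (interval -0.83 to 0.31). Its values in cultured KO cells were 3.94 and 3.47 RPM, against 3.69, 0.733 and 0.935 RPM in WT cells, one WT library standing between the KO libraries. Hectd2 had 6.24, 5.93, 4.75, 5.68 and 4.04 RPM in KO tumours of Rag1-/- hosts, against 0.712, 1.06, 0.791, 1.33 and 0.737 RPM in WT tumours, a log2 difference of 2.45. In culture it had 5.20 and 3.19 RPM in KO cells, against 3.25, 1.11 and 0.668 RPM in WT cells. One WT library stood just above the lower KO library in RPM and just below it in the authors' normalized counts (112 in 3-7 against 111 in E0771-P). The log2 difference was 1.60 (interval 0.09 to 3.12, limma adjusted p = 0.246). At day 4 Hectd2 averaged 2.90 ± 1.16 RPM in KO tumours (n = 5) and 3.15 ± 1.30 RPM in WT tumours (n = 4). Its day 6 average was 2.83 ± 1.09 RPM with antibody and 4.59 ± 1.30 RPM with IgG (SD, n = 4 each), and the log2 difference of -0.73 (interval -1.48 to 0.02) had a limma adjusted p of 0.517.

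Acpp, the acid phosphatase, was the member whose groups did not overlap at day 6, with the antibody tumours lower. They had 14.3, 14.8, 14.2 and 9.88 RPM, against 22.4, 16.8, 20.0 and 33.4 RPM with IgG. The log2 difference was -0.77 (interval -1.27 to -0.28) with an unadjusted p of 0.00641, a limma adjusted p of 0.517 and an adjusted p of 0.0776 in the authors' deposited table. Such separation, lower with antibody, occurred in 1.87% of all genes, and in 1 of the 8 here. In Rag1-/- hosts KO tumours had 7.33, 7.45, 6.65, 8.46 and 5.72 RPM, against 1.12, 0.901, 0.844, 0.976 and 1.57 RPM in WT tumours, a log2 difference of 2.65. At day 4 KO tumours had 10.3, 3.53, 6.55, 4.29 and 3.83 RPM, against 5.80, 6.11, 4.22 and 4.74 RPM in WT tumours. Both the highest and the lowest day 4 tumour were KO tumours (log2 difference -0.04, interval -0.73 to 0.65). Cultured KO cells had 18.2 and 4.05 RPM, against 7.89, 6.27 and 4.89 RPM in WT cells, so the 2 KO libraries enclosed the WT range.

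In culture the WT library titled E0771-P stood apart from those titled EV and Ctrl in the genes described here, a pattern noticed after the values were seen. The count for Slc9a2, for example, was 2026 in 3-6 and 793 in 3-7, against 1424 in E0771-P, 303 in EV and 151 in Ctrl, in the authors' normalized counts. For Greb1 it was 129 in 3-6 and 80.1 in 3-7, against 117 in E0771-P, 6.49 in EV and 15.3 in Ctrl. E0771-P exceeded both EV and Ctrl in 8 of 8 genes, where 40.6% of all genes did so. It was at least 2 times both in 6 of 8 genes, where 5.28% of all genes were. Both KO libraries exceeded EV and Ctrl in 7 of 8 genes (30.4% of all genes), with Acpp the exception, and both exceeded E0771-P in 3 of 8 (37.1% of all genes).

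**Figure D3:**
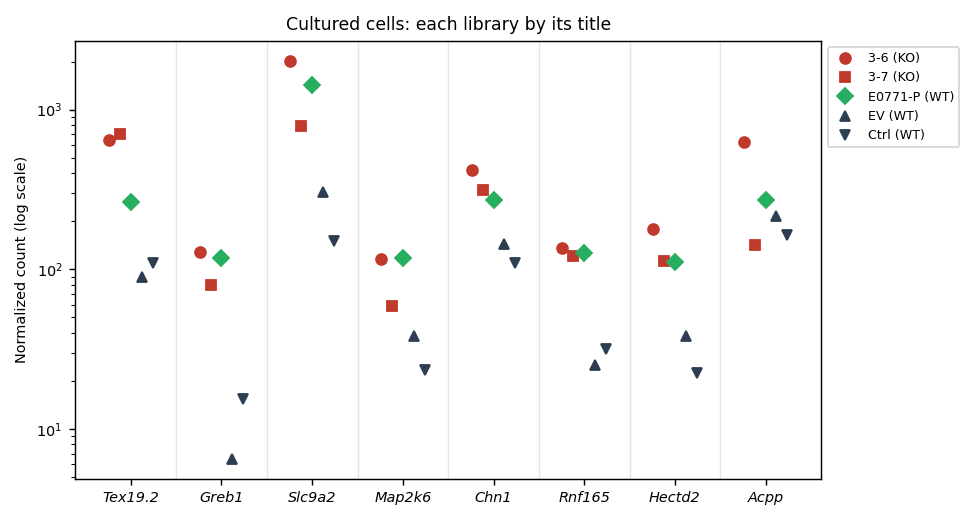
Normalized count (log scale) of each gene in the 5 cultured libraries, named by title, KO left of WT. E0771-P (diamonds) lies above EV and Ctrl for all 8 genes and, for example, at 117 for Greb1 against 6.49 and 15.3.

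Without E0771-P, limma called 6 of 8 genes higher in KO cells, where 7.71% of all 11736 genes were called higher. E0771-P was the highest WT library for each of the 8 genes, so leaving it out lowers the WT mean of each, and these values are given as a description. The log2 difference was then 2.75 for Tex19.2, 3.22 for Greb1, 2.56 for Slc9a2, 1.52 for Chn1, 2.15 for Rnf165 and 2.23 for Hectd2, and 1.43 for Map2k6 and 0.66 for Acpp, which were not called. Leaving out EV or Ctrl instead gave 0 called members, where only 0.0168% and 0.0587% of all genes were called. Summed markers of several other cell types were also higher in E0771-P than in EV and Ctrl. Adipocyte markers were at 36.0 against 6.65 and 4.49 RPM, and skeletal muscle markers at 20.8 against 5.35 and 6.76 RPM. Macrophage markers were at 47.9 against 20.0 and 15.4 RPM. Fibroblast markers, at 200 RPM in E0771-P, lay between 176 RPM in EV and 238 RPM in Ctrl. Epithelial markers were lower in E0771-P, at 235 RPM against 267 and 261 RPM. The part of these markers in the result was not tested.

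Set side by side across hosts, the WT tumours of Rag1-/- mice were the low group. Every one of them was below every other tumour of the series in all 8 genes, where 1.83% of 11456 genes behaved so; the choice of the genes used part of these values. Day 4 WT tumours had 3.40 to 11.8 times the mean RPM of WT tumours in Rag1-/- hosts, with Hectd2 at the low end and Map2k6 at the high end. The day 4 WT mean was at least 2-fold higher with no overlap in 8 of 8 genes, where 12.2% of genes met this. Low WT values in Rag1-/- hosts were part of the choice of the genes, so nothing is read from either count. KO tumours of Rag1-/- hosts had 0.955 to 2.04 times the mean of day 4 KO tumours, lowest in Rnf165 and highest in Greb1. The tables were normalized separately, and host, transplantation and table cannot be told apart, so these are levels and not tests. Marker levels differed as well. Fibroblast markers had medians of 1318 RPM in WT tumours of Rag1-/- hosts and 4744 RPM in day 4 WT tumours. Epithelial markers had 243 and 545 RPM, and T and B cell markers 7.91 and 2.11 RPM. Of the T and B cell list, Cd3e was at 0 in every WT tumour of Rag1-/- hosts, and no gene was at 0 in every day 4 WT tumour. Which genes carried that sum was not examined, so it does not show more T or B cells in Rag1-/- hosts. The part of this cell mix was not tested.

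The order of group means differed between genes even though the lowest tumour group was shared. For Acpp the WT tumours of Rag1-/- hosts were lowest at 1.08 ± 0.292 RPM, with no overlap with the next group, and the IgG tumours of day 6 highest at 23.2 ± 7.20 RPM. Tex19.2 also had its lowest group apart from the next, at 0.916 ± 0.531 RPM, and its highest neighbours, day 6 antibody tumours at 21.2 ± 6.01 RPM and cultured KO cells at 19.5 ± 0.978 RPM, overlapped. Chn1 was highest in the day 6 groups, which overlapped each other and stood above all KO tumours of Rag1-/- hosts, the next lower group. Greb1 was highest in KO tumours of Rag1-/- hosts, above every IgG tumour of day 6, the next lower group. For Map2k6, Slc9a2, Rnf165 and Hectd2 each group overlapped its neighbour in the order. Greb1 was the one gene whose lowest group mean was in culture, at 1.35 ± 1.79 RPM in WT cells, followed by 1.90 ± 0.616 RPM in WT tumours of Rag1-/- hosts.

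Within groups, pairs of genes differed in how far they varied together between tumours. Each tumour's deviation from its group mean of log2(RPM + 1) was correlated between genes over 27 tumours, which share libraries and depth. Slc9a2 and Rnf165 had the highest r, 0.82, followed by Slc9a2 with Hectd2 at 0.65, Greb1 at 0.63 and Map2k6 at 0.60, and by Hectd2 with Acpp at 0.61. The share of all gene pairs with r above 0.5 was not measured, so the count here is a description and nothing is read from it. In all, 7 of 28 pairs exceeded 0.5, and the median was 0.13. All 7 lay among Slc9a2, Rnf165, Greb1, Map2k6, Hectd2 and Acpp, whose other 8 pairs had r of 0.101 to 0.499. Pairs with Tex19.2 had r between -0.21 and 0.15 and pairs with Chn1 between -0.22 and 0.15, which reaches above the lowest of those 8. Over all 32 libraries, with group differences left in, the same 28 pairs had r of 0.37 to 0.92 with a median of 0.74, and the choice of the genes contributes to that.

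**Figure D4:**
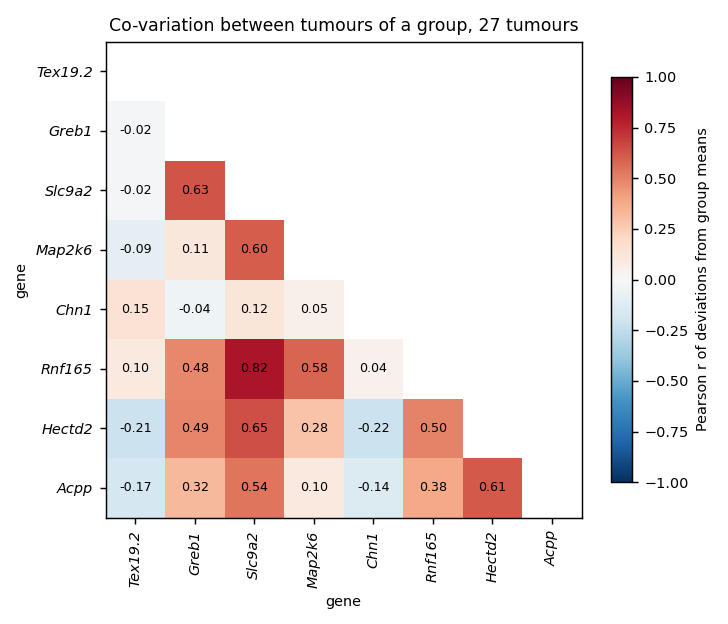
Pearson r between genes of deviations from the group mean of log2(RPM + 1), over 27 tumours; each cell is a pair, red positive and blue negative. The 7 pairs above 0.5 are among Slc9a2, Rnf165, Greb1, Map2k6, Hectd2 and Acpp, with Slc9a2 and Rnf165 at 0.82; other pairs of these genes go down to 0.101, and the Tex19.2 and Chn1 cells lie between -0.22 and 0.15.

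The genes nearest to each member in level over the 32 libraries, among 11102 genes, were partly other members. These libraries include the 10 tumours of Rag1-/- hosts that chose the genes, so likeness between members is partly built in, and within groups of tumours the r of Tex19.2 with Chn1 was 0.146. Slc9a2 and Map2k6 were each other's nearest (r = 0.923), as were Tex19.2 and Chn1 (r = 0.912), and Slc9a2 was nearest to Rnf165 (r = 0.906) and Hectd2 (r = 0.849). For Greb1 the nearest were Sh3rf1, a scaffold of stress kinases (r = 0.893), Gcnt1, which branches O-glycans (r = 0.871), and Myo18b, an unconventional myosin (r = 0.856). Acpp was nearest to the deadenylase gene Cnot6 (r = 0.869), the Src-family kinase gene Fyn (r = 0.849) and Gk5, of the glycerol kinase family (r = 0.845). Further neighbours were Syt16, a synaptotagmin relative, for Tex19.2 (r = 0.886), and Vps53, of an endosome tethering complex, also for Tex19.2 (r = 0.836). Chn1 had Arsj (r = 0.879), an arylsulphatase gene, and Nudt9 (r = 0.868), an ADP-ribose hydrolase gene. Slc9a2 had Clip4 (r = 0.887), Map2k6 had Zfp36l1 (r = 0.871), which promotes mRNA decay, and Rnf165 had Upp1 (r = 0.877), uridine phosphorylase. Hectd2 had Greb1 (r = 0.812) and Csgalnact2 (r = 0.799), an enzyme of chondroitin sulphate synthesis.

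For Syt16, KO and WT tumours were also apart at day 4, by a log2 difference of 3.43 (interval 2.67 to 4.19). Among the members only Tex19.2 was apart there in RPM, narrowly, and its normalized counts overlapped. In culture the log2 difference of Syt16 was 5.71 (interval 3.91 to 7.52), with KO higher. Syt16 had 4.44 to 6.28 RPM in day 4 KO tumours, against 0.199 to 0.683 RPM in day 4 WT tumours. In Rag1-/- hosts it had 7.75 to 8.76 RPM in KO tumours, against 0 to 0.0527 RPM in WT tumours. The members were chosen by their log2 difference in Rag1-/- hosts, so nothing is read from their places by that difference. Among all 12795 genes tested in the Rag1-/- table, the members held places between 3 and 15, with other genes in between. Among the 11090 genes with a mean of 50 or more there, the members held places 2 to 9 by log2 difference. Syt16, at 6.99, was just above them, and Rnf165, at 2.35, was the last inside. Lrp2 at 2.16 and Myo18b at 2.15 were just outside.

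Genes of the pathways around the members were examined as 8 lists with the members left out. In Rag1-/- hosts 13 list genes rose and 13 fell of 124 tested, which is 21.0%, against 22.7% of all 12795 genes. The medians of the lists there lay between -0.06 and 0.08 on the log2 scale, against a median of -0.00347 over all genes. In culture they lay between -0.15 and 0.04, against 0.00346 over all genes. At day 4 the oestrogen-response list had a median of 0.75, with 11 of 17 genes above 0, and the other lists lay between -0.13 and 0.15, against 0.00277 over all genes. At day 6 the HECT ligase list had a median of -0.36, with 3 of 23 genes above 0, and the other lists lay between -0.16 and 0.16, against -0.0121 over all genes. In culture, at day 4 and at day 6, limma and edgeR called 0 list genes of 108, 147 and 147 tested. DESeq2 called 12, 11 and 4, which is 10.6%, 7.19% and 2.60% of the list genes it tested, against 8.36%, 4.73% and 0.999% of all genes. At an unadjusted p under 0.05 limma had 24, 34 and 14, which is 22.2%, 23.1% and 9.52%, against 18.8%, 15.0% and 8.60% of all genes. Without E0771-P, limma called 20 list genes in culture (18.9%, against 14.1% of all genes), and without day 4 KO tumour 5 it called 2 at day 4 (1.36%, against 0.356%). In Rag1-/- hosts the count ranged between 14, without WT tumour 2 (11.3%, against 15.5% of all genes), and 31 of 124, without WT tumour 5 (against 24.2% of all genes).

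By pathway, the genes of smallest p in Rag1-/- hosts moved in both directions (log2 differences KO minus WT, limma). In this comparison 21.0% of the list genes were called, against 22.7% of all genes, so nothing is read from the count of any list. Of 11 oestrogen-response genes around Greb1, 1 rose and 2 fell. The pioneer factor gene Foxa1 rose by 1.17 ± 0.27 (SE, adjusted p = 0.00769), while Wisp2, a matricellular gene, fell by 1.33 ± 0.17 (adjusted p = 0.000178) and Igfbp4, an IGF-binding gene, fell by 0.46 ± 0.07 (adjusted p = 0.000926). Of 21 p38 genes around Map2k6, 4 rose and 2 fell. The p38 phosphatase gene Dusp10 rose by 0.45 ± 0.10 (adjusted p = 0.00616) and Map3k7, encoding TAK1, by 0.20 ± 0.05 (adjusted p = 0.00821). Tab1, its partner, fell by 0.21 ± 0.05 (adjusted p = 0.0105).

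Around Slc9a2, 1 of 9 exchanger genes rose and 2 fell. The scaffold gene Slc9a3r1 rose by 0.53 ± 0.07 (adjusted p = 0.000311), while Slc9a8 fell by 0.18 ± 0.05 (adjusted p = 0.0221). Of 24 Rac genes around Chn1, 2 rose and 1 fell. The Rac effector kinase gene Pak1 rose by 0.39 ± 0.08 (adjusted p = 0.0044). Of the Rac exchange factors, Prex2 rose by 0.57 ± 0.16 (adjusted p = 0.0193) and Prex1 fell by 0.32 ± 0.10 (adjusted p = 0.0317). Slc9a8 was lost without KO tumour 1 or WT tumour 2 (adjusted p 0.0564 and 0.0600), and Prex2 without WT tumour 2 (adjusted p = 0.0547). Prex1 was lost without KO tumours 1, 2 or 4 or WT tumours 1, 2 or 5 (adjusted p up to 0.0862). With the replicate number as a block Slc9a8 had an adjusted p of 0.0536.

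Of 18 BMP genes around Rnf165, 2 rose and 1 fell. The receptor gene Bmpr2 rose by 0.35 ± 0.10 (adjusted p = 0.0184) and its signal carrier Smad1 by 0.28 ± 0.07 (adjusted p = 0.0158), while Bmp1, a procollagen protease and not a BMP ligand, fell by 0.19 ± 0.04 (adjusted p = 0.00503). Of 21 HECT ligase genes around Hectd2, 2 rose and 2 fell. Nedd4l, which limits sodium channels, rose by 0.58 ± 0.10 (adjusted p = 0.00125) and Ube3c by 0.18 ± 0.05 (adjusted p = 0.0194), while Wwp2 fell by 0.19 ± 0.06 (adjusted p = 0.0265). Bmpr2 was lost without KO tumour 4 (adjusted p = 0.0535), and Ube3c without KO tumour 4 or WT tumours 1 or 2 (adjusted p up to 0.0546). Wwp2 was lost without KO tumours 1 or 4 or WT tumours 1, 2 or 4 (adjusted p up to 0.0733) and with the replicate block (adjusted p = 0.064). Of 5 germ cell genes tested beside Tex19.2, none rose and 2 fell, Tex19.1 by 0.17 ± 0.05 (adjusted p = 0.0239) and Tdrd1, of the germ line RNA pathway, by 0.20 ± 0.06 (adjusted p = 0.0262). Tex19.1 was lost without KO tumours 4 or 5 or WT tumours 2 or 3 (adjusted p up to 0.0598), and Tdrd1 without KO tumours 4 or 5 or WT tumours 1 or 2 (adjusted p up to 0.0596). Of 15 phosphatase and adenosine genes around Acpp, the adenosine kinase gene Adk rose by 0.28 ± 0.05 (adjusted p = 0.00341) and the adenosine deaminase gene Ada fell by 0.24 ± 0.06 (adjusted p = 0.0113).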

How the data were processed

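RNA of 32 libraries was made with the Illumina TruSeq stranded mRNA kit, per the labels' protocols. CASAVA, TopHat, DESeq2 and mm10 stand in the submitters' processing notes, while not given in the sources used here were the counting tool, annotation and strand setting. The authors deposited 4 tables of signal values, read counts per gene divided by a size factor per library, together with p-values and adjusted p-values made before deposit. Per the file headers, 26 further columns hold group means and the authors' fold changes, as ratios and as log2 ratios, which were not used as sample values.

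Dividing each library by the smallest step of its values gave whole reads within 0.01 for 100% of values, and these gave depth and RPM. Tests used limma 3.58.1 (R 4.3.3) with a trend on log2(normalized count + 1), within each table, for genes with a mean of 10 or more, two-sided, with Benjamini-Hochberg adjustment over all genes tested and a threshold of 0.05. Log2 differences on this scale understate changes of low genes. Alternatives were pseudocounts of 0.5 and 5, no filter, a mean of 50, upper-quartile rescaling, count tests on the recovered reads (edgeR 4.0.16, DESeq2 1.42.0), a block for the replicate number, and fits that omit 1 library each. The 8 genes, the lists and the tests were chosen with earlier results of these data known. Named were the 8 genes, Ddr1, up to 3 called genes of smallest p per list and table, and the 3 genes of highest Pearson r with each member over 32 libraries at a mean of 1 RPM or more. One called list gene is not reported here by name. Other genes (Lrp2 and Myo18b as values just outside the members) were added after their values were seen. Figures were drawn with matplotlib 3.10.9 in Python 3.11.15.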

Additional observations from a re-analysis of the deposited data

Results flagged for a closer look

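In WT tumours of Rag1-/- hosts, tumour 4 lay far above the other 4 for Slc9a2, with a normalized count of 245.8 against 145.4 in the next highest tumour. The same tumour lay apart for Chn1, at 89.0 against 56.4. Both values were still below every KO tumour of those hosts. Of 48 pairs of gene and group examined for a library far from the rest, these 2 were found, and chance gives about 1 in 20.

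For Map2k6 the sign of the knockout difference was not the same in all settings. The log2 difference was -0.91 at day 4, with KO lower, against 2.64 in Rag1-/- hosts, with KO higher. It was 0.79 in culture, with KO higher, against -0.91 at day 4. The culture interval, -0.82 to 2.39, included 0, and the WT library E0771-P lay above both KO libraries. Neither difference between settings was tested.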

How the results depend on the processing

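The number of genes called in culture, 39 in limma (2 higher, 37 lower), was 25 in edgeR and 1044 in DESeq2 on recovered reads, and between 2 and 1655 when each library was left out, the highest without E0771-P. The members called in culture, 0 in limma, were 1 in DESeq2 (Tex19.2) and 0 to 6 when each library was left out. At day 4, 5 genes were called in limma, against 9 with no filter, 4 in edgeR, 723 in DESeq2 and 3 to 50 when each library was left out, the highest without KO tumour 5. Members called at day 4 were 0 in limma and 2 in DESeq2 (Tex19.2 higher, Map2k6 lower). At day 6, 0 genes were called in limma and edgeR and 155 in DESeq2, with 0 to 5 when each library was left out, the highest without antibody tumour 1; 1218 genes had an unadjusted p under 0.05. In Rag1-/- hosts edgeR called 2900 genes against 2904 in limma. The cause of these differences was not tested.

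Some small differences changed sign. At day 4 Chn1 was -0.00517 in edgeR, -0.0158 in DESeq2 and -0.0222 with the replicate block, and Acpp was 0.0773, 0.0580 and 0.0582. At day 6 Map2k6 was 0.00774 with upper-quartile rescaling and 0.00493 in DESeq2. When each library was left out, the log2 difference ran between -0.58 and 1.55 for Acpp in culture, and at day 4 between -0.32 and 0.0766 for Greb1, -0.13 and 0.15 for Chn1, -0.44 and 0.0451 for Hectd2 and -0.26 and 0.11 for Acpp. At day 6 it ran between -0.0416 and 0.0723 for Chn1 and between -0.19 and 0.0906 for Map2k6. None of these values passed the threshold.

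Replicate numbers do not mark pairs in the labels. The deviations of same-numbered tumours had r of -0.20 to 0.15 (Rag1-/- hosts), -0.17 to 0.14 (day 4) and -0.20 to 0.45 (day 6), so the numbers were taken as names. With the replicate block 2 genes were called at day 4 in place of 5, 2411 in Rag1-/- hosts in place of 2904 and 0 at day 6, and members called stayed 0 at day 4 and day 6. No paired analysis was possible in culture because the titles carry no replicate number. With pseudocounts of 0.1 and 5 RPM, the nearest gene of each member was the same, except that Gcnt1 was nearest to Greb1 at 0.1.

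The 2 KO libraries in culture limit what that comparison can show, and WT tumours of Rag1-/- hosts hold 70 to 760 reads per member summed over 5 tumours.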
